A study of Sus scrofa with 8 samples.

Results

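Genes for proteins of the Z-disc and of the ends of the thin filaments were followed in limb muscle of pig (Sus scrofa) embryos that lacked the myogenic regulatory factors MYF5, MYOD and MYF6, and in wild-type embryos. The genes were listed by name for their place in the sarcomere, with no threshold on a measured value but with earlier results of these data known, and 10 were listed: CSRP3, MYOZ2, MYPN, MYOT, SMPX, XIRP1, LMOD2, LDB3, ACTN2 and TCAP. Of these, 9 were among the 22516 gene identifiers of the count table and all 9 passed the filter on low counts, as did 17020 genes in all. LDB3 was not analysed here.

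Bulk RNA was sequenced from limb muscle tissue of 4 groups, with 2 libraries in each: wild type at embryonic day 41 (E41), knockout at E41, wild type at E62 and knockout at E62. The knockout groups carried the combined knockout of MYF5, MYOD (gene MYOD1) and MYF6, which the series title calls a knockdown, and the wild-type groups carried no named allele. The sample titles call the 2 libraries of a group biological replicates. How the alleles were made, and whether the embryos of a group shared a litter, is not given in the sources used here, so the p-values below measure the spread between these libraries. The harvest protocol gives day 60 for the stage that the sample titles call E62.

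Striated muscle is built of sarcomeres, whose thin actin filaments are anchored at their barbed ends in the Z-disc and are capped at their free, pointed ends. Alpha-actinin crosslinks the actin filaments of neighbouring sarcomeres at the Z-disc, and a layer of smaller proteins binds alpha-actinin, titin and filamin there and links the disc to signalling. MYF5, MYOD and MYF6 are transcription factors that commit cells to the skeletal muscle lineage and activate muscle genes.

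The library totals ranged from 23402052 to 60539245 estimated counts, and both wild-type E41 libraries were the shallowest. MYF5 and MYF6 had 0 counts in all 4 knockout libraries, against at least 948 and 530 counts in each wild-type library. MYOD1 had 28 and 20 counts in the knockout at E41 and 77 and 88 at E62, against at least 1503 in each wild-type library. The summed level of 10 measured skeletal muscle markers was 17400 to 18300 CPM (counts per 1000000 counts of a library) in the wild type at E41 and 25.5 to 28.6 CPM in the knockout. At E62 it was 40400 to 49000 CPM in the wild type and 12.8 to 15.5 CPM in the knockout. The single markers did not all follow the lower knockout sum at E62, to which DES contributed with a fall from 19.7 to 6.39 CPM. From E41 to E62 in the knockout, 4 of the 10 were called higher, 2 lower and 4 had no call (edgeR). Of all genes tested, 12.1% were called higher and 18.0% lower there. All 10 markers were lower in the knockout at both stages, so the tissue of the knockout carried little RNA of the labelled tissue's defining genes. In bulk tissue, fewer muscle cells and less of these RNAs per cell cannot be told apart. The library names carry a different number in each group, and the wild-type E41 names also a different position code, so a shared litter or preparation and the group cannot be told apart. The knockout E62 libraries were the least alike of the replicate pairs, with a correlation of 0.967 over all tested genes against 0.972 to 0.987 in the other pairs.

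The Z-disc and thin filament end genes were almost undetected in the knockout at both stages. At E41 all 9 were lower in the knockout (edgeR quasi-likelihood test, Benjamini-Hochberg adjusted over 17020 genes), where 20.8% of all genes tested were called lower and 18.5% higher. At E62 all 9 were again lower, where 26.2% of all genes were called lower and 21.0% higher. The median log2 difference of the 9 genes was -13.15 at E41 and -11.78 at E62, with genes of 0 to 3 counts in the knockout entered at their count ratio or bound, whereas the median over all genes was 0.09 and 0.06. For every one of the 9 genes the knockout libraries lay below both wild-type libraries of their stage, which was true of 33.3% of all genes at E41 and 37.3% at E62. With library totals alone as the scaling, 12.2% of all genes were called lower and 34% higher at E41, and 16% and 36.2% at E62, and all 9 genes stayed lower at both stages. Levels below are CPM of library totals scaled by the trimmed mean of M-values, and are not corrected for gene length, so they are compared only within a gene.

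**Figure D1:**
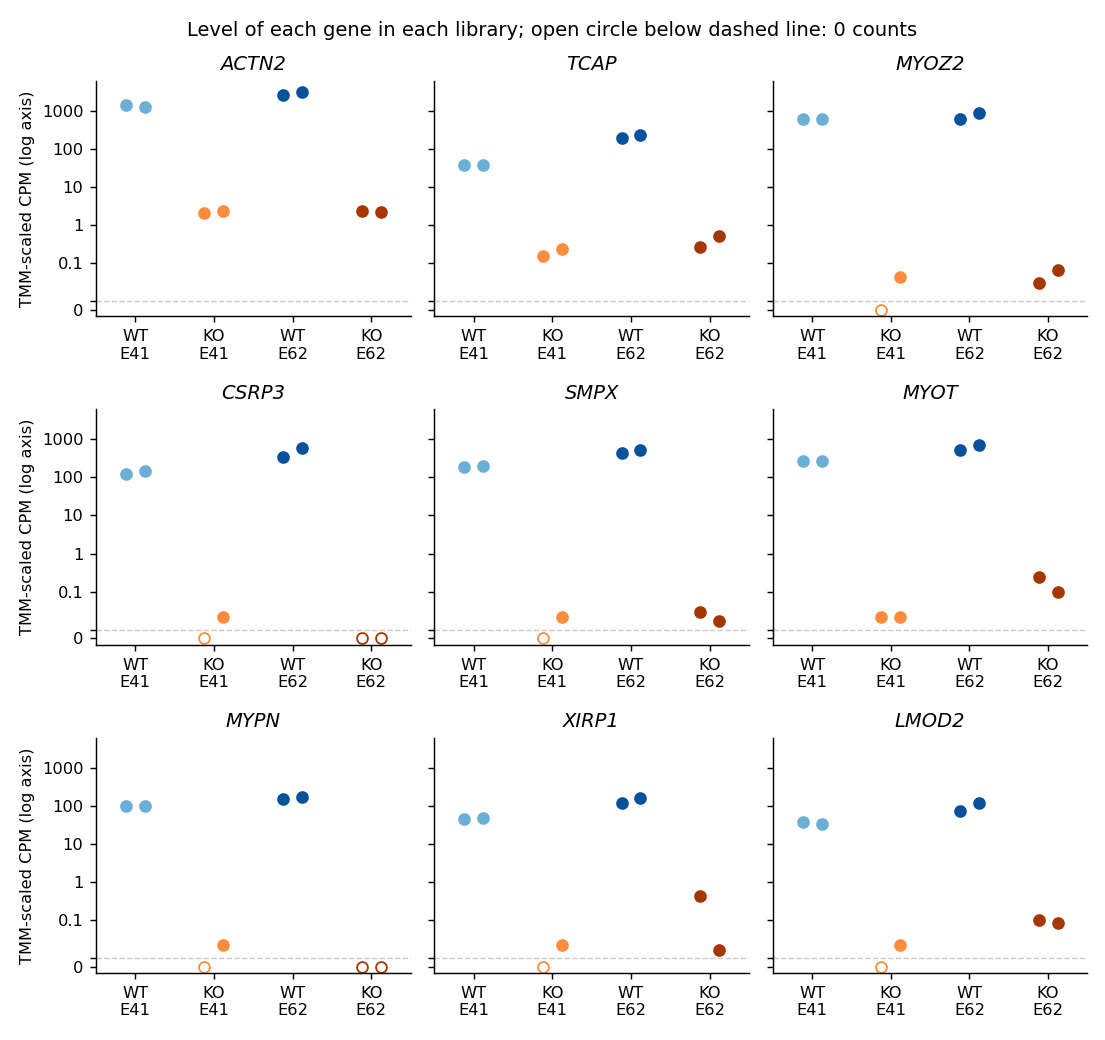
Level of each of the 9 measured genes in every library, as CPM of scaled library totals on a log axis, with the 4 groups side by side and 1 point per library. Open circles under the dashed line mark 0 counts, as in both knockout E62 libraries for CSRP3 and MYPN, while ACTN2 keeps 2.02 to 2.41 CPM in all 4 knockout libraries.

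ACTN2, the alpha-actinin of the heart and of all skeletal muscle fibres that crosslinks thin filaments at the Z-disc, kept the highest counts in the knockout. It lies on chromosome 14 at 54670727 to 54742717 (RefSeq, Sscrofa11.1). Its level was 1374 and 1223 CPM in the wild-type E41 libraries and 2.02 and 2.41 CPM in the knockout, with 94 and 111 counts. At E62 it was 2539 and 3110 CPM in the wild type and 2.27 and 2.20 CPM in the knockout, with 154 and 132 counts. The 4 knockout libraries were thus alike, and the wild-type libraries of both stages lay far above them. The log2 difference was -9.19 ± 0.20 (SE, n = 2 libraries a group, edgeR adjusted p = 1.16e-07) at E41 and -10.30 ± 0.21 (adjusted p = 5.07e-08) at E62. Estimated counts divide reads among similar sequences, and the related ACTN1 and ACTN4 stayed at 83.4 to 242 CPM in the knockout, so the small ACTN2 counts there are uncertain.

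TCAP encodes telethonin, which ties the ends of neighbouring titin molecules together at the border of the Z-disc. The gene is short, on chromosome 12 at 22651666 to 22652904. It had 36.8 and 38.2 CPM in the wild type at E41 and 0.151 and 0.239 CPM in the knockout, where 7 and 11 counts stood behind the values. At E62 the wild-type libraries rose to 196 and 229 CPM and the knockout libraries held 0.266 and 0.517 CPM, from 18 and 31 counts. The groups did not overlap at either stage. The log2 difference was -7.57 ± 0.29 (edgeR adjusted p = 2.59e-06) at E41 and -9.09 ± 0.27 (adjusted p = 4.57e-07) at E62.

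MYOZ2 encodes calsarcin-1 (myozenin 2), which binds alpha-actinin and the phosphatase calcineurin and is the form of slow and cardiac muscle. It lies on chromosome 8 at 104578942 to 104609367, overlapping SEC24D in the annotation. Wild-type libraries held 591 and 623 CPM at E41 and 615 and 863 CPM at E62. The knockout had 0 and 2 counts at E41 and 2 and 4 counts at E62, the latter 0.0295 and 0.0667 CPM. The wild type was 28079 times the knockout at E41 (95% interval of the ratio 7772 to 231870, counting error only, as for all such ratios here; edgeR adjusted p = 8.2e-07). At E62 the log2 difference was -13.85 ± 0.40 (adjusted p = 4.5e-07).

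CSRP3 encodes muscle LIM protein, a Z-disc protein that binds alpha-actinin and telethonin, and lies on chromosome 2 at 40219288 to 40240614. Its level was 119 and 148 CPM in the wild type at E41 and 338 and 599 CPM at E62, the widest gap between replicates among the 9 genes. The knockout libraries held 0 and 1 counts at E41 and 0 and 0 at E62. The ratio of wild type to knockout was 12338 at E41 (2214 to 487420; edgeR adjusted p = 0.000173). At E62 the gene was at least 19950-fold lower in the knockout, against a floor of 3 counts over the group (adjusted p = 5.07e-05).

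MYOT and MYPN encode myotilin and myopalladin, a pair of related proteins with immunoglobulin domains that bind alpha-actinin. MYOT (chromosome 2, 139899245 to 139919095) had 260 and 265 CPM in the wild type at E41 and 528 and 701 CPM at E62. In the knockout it had 1 count in each E41 library, and 16 and 6 counts at E62, or 0.236 and 0.1001 CPM. All 4 knockout values were far below the wild type, with a ratio of 12136 at E41 (3359 to 100220; edgeR adjusted p = 4.71e-07) and a log2 difference of -11.78 ± 0.31 (adjusted p = 2.29e-07) at E62. MYPN (chromosome 14, 71283271 to 71388591) had 96.7 and 99.3 CPM in the wild type at E41, 153 and 171 CPM at E62, and no count in the knockout but 1 in an E41 library. Wild type was 9065 times the knockout at E41 (1626 to 358120; edgeR adjusted p = 4.31e-07). At E62 MYPN was at least 6908-fold lower in the knockout (adjusted p = 1.74e-07). Both genes overlap an uncharacterised locus in the annotation, and the strand setting used for counting is not given in the sources used here.

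SMPX, the small muscle protein of the X chromosome (17889030 to 17938206), is found at the costameres that tie the Z-disc to the cell membrane. It had 185 and 194 CPM in the wild type at E41 and 439 and 506 CPM at E62, with close replicates at both stages. Knockout libraries held 0 and 1 counts at E41 and 2 and 1 counts at E62. The ratio was 17519 at E41 (3143 to 692050; edgeR adjusted p = 9.35e-08) and 20125 at E62 (6886 to 97593; adjusted p = 3.95e-08).

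XIRP1 (chromosome 13, 23867476 to 23876850) encodes Xin, an actin-binding protein of developing and repairing muscle that also binds filamin C. Wild-type libraries held 44.5 and 47.7 CPM at E41 and 120 and 162 CPM at E62. The knockout had 0 and 1 counts at E41, but 29 and 1 counts at E62, which are 0.428 and 0.0167 CPM. The knockout E62 libraries therefore differed from each other more for XIRP1 than for the other 8 genes, yet both stayed far below the wild type. The ratio at E41 was 4266 (764.7 to 168570; edgeR adjusted p = 0.000691), and the log2 difference at E62 was -9.23 ± 0.71 (adjusted p = 0.000287).

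LMOD2, at the pointed end of the thin filament rather than at the Z-disc, encodes leiomodin 2, which nucleates actin and lengthens thin filaments. On chromosome 18 at 23803927 to 23815772, it had 37.2 and 34.1 CPM in the wild type at E41 and 70.8 and 116 CPM at E62. In the knockout it had 0 and 1 counts at E41 and 7 and 5 counts at E62, the latter 0.103 and 0.0834 CPM. Wild type was 3296 times the knockout at E41 (590.7 to 130270; edgeR adjusted p = 9.63e-06), with a log2 difference of -9.91 ± 0.38 (adjusted p = 2.79e-06) at E62. The groups did not overlap at either stage, so the gene at the pointed end was lower together with those at the Z-disc.

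What remained in the knockout was a small share of the wild-type level. At E41 the residual level ranged from 0.00358% of wild type for MYOZ2 to 0.519% for TCAP, with a median of 0.0111%. At E62 it ranged from 0% for CSRP3 and MYPN to 0.184% for TCAP, with a median of 0.0273%. In the E41 knockout 7 of the 9 genes had 3 counts or fewer over both libraries, and at E62 there were 3 such genes. The exceptions at E41 were ACTN2 and TCAP, at 0.171% and 0.519%.

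**Figure D2:**
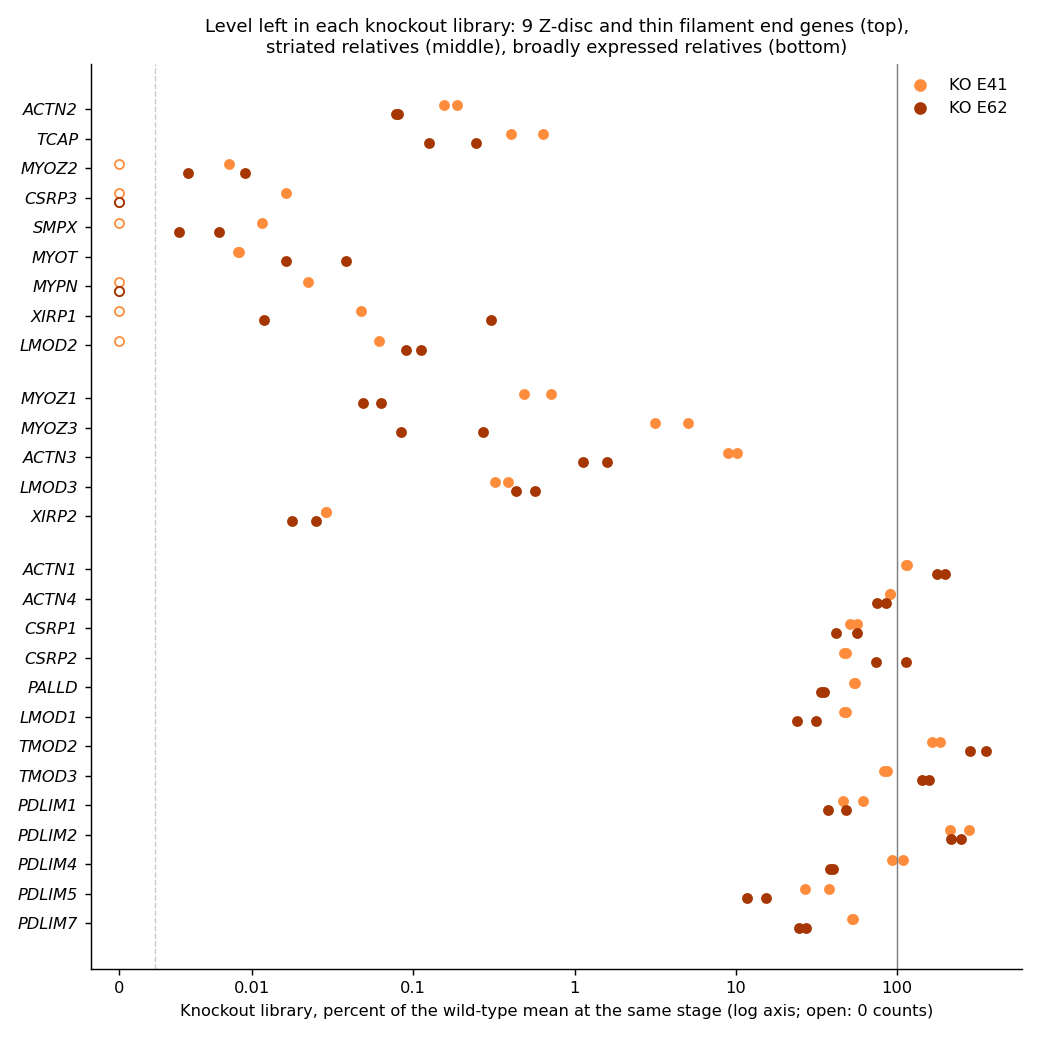
Level in each knockout library as a percentage of the wild-type mean of the same stage, on a log axis, for the 9 genes, the 5 striated relatives and the 13 broadly expressed relatives. Open circles mark 0 counts and the vertical line marks 100%, with all points of the 9 genes at or below 0.637% and those of ACTN1 above the line.

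Several of the 9 proteins are also made in the heart, and other tissues of the limb could enter the sample. The summed level of 8 measured heart markers was 21 to 29 CPM in the wild type at E41 and 4.97 to 5.17 CPM in the knockout, and at E62 50.9 to 51.1 CPM against 14.2 to 16.7 CPM. MYH6, an atrial myosin heavy chain, made up most of the sum in the wild type at E62, at 40.96 and 38.93 CPM against 0.590 and 0.701 CPM in the knockout. Of the 4 heart markers that could be tested, all 4 were lower in the knockout at E41, while by E62 there were 2 lower, 1 without a call and RYR2, a calcium release channel of the heart, higher. RYR2 had 9.25 and 10.86 CPM in the knockout at E62 and 3.82 and 4.947 CPM in the wild type. NKX2-5, a cardiac transcription factor, was at 0 in all knockout libraries and in both wild-type E62 libraries, with 4 counts over the wild-type E41 libraries. The markers named here were chosen after their values were seen. Smooth muscle and pericyte markers (9 of 9 measured) summed to 1200 to 1440 CPM in the wild type and 561 to 564 CPM in the knockout at E41, and to 1550 to 1620 CPM against 719 to 810 CPM at E62. Their single members did not all follow the sum, with 1 higher, 3 lower and 5 without a call at E41, and 3 higher, 3 lower and 3 without a call at E62. ACTA2, smooth muscle actin that is also made in developing skeletal muscle, had 972 and 831 CPM in the wild type at E41 and 66.5 and 66.7 CPM in the knockout. MYH11, the smooth muscle myosin heavy chain, had 23.99 and 32.79 CPM in the knockout at E62 and 9.17 and 14.96 CPM in the wild type. Fibroblast markers (8 of 8 measured) summed to 17100 to 27500 CPM in the wild type and 38200 to 39700 CPM in the knockout at E41. At E62 they summed to 20500 to 37100 CPM against 67000 to 73100 CPM, and 7 of the 8 were called higher in the knockout. Some tissues differed widely between knockout replicates. Cartilage markers (5 of 5 measured) summed to 291 to 3630 CPM in the knockout and 249 to 899 CPM in the wild type at E41. Skin markers (3 of 5 measured) summed to 38.4 to 509 CPM in the knockout and 10.6 to 10.9 CPM in the wild type at E62. The part of all these tissues in the results for the 9 genes was not tested.

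The muscle-specific relatives of these genes were lower in the knockout too, and some of their relatives in other tissues were not. All 5 measured striated relatives were lower at both stages. MYOZ1, the calsarcin of fast muscle, had 58.0 and 56.9 CPM in the wild type at E41 and 0.280 and 0.413 CPM in the knockout, a log2 difference of -7.36 ± 0.19 (edgeR adjusted p = 2.11e-07). MYOZ3, also a calsarcin of fast muscle, was lower, at a log2 difference of -4.59 ± 0.34 (adjusted p = 9.97e-05). ACTN3, the alpha-actinin of fast fibres, had 1.88 and 1.504 CPM in the wild type at E41 and 0.172 and 0.152 CPM in the knockout, a log2 difference of -3.36 ± 0.33 (adjusted p = 0.000272). XIRP2, related to XIRP1, and LMOD3, the other leiomodin of skeletal muscle, were lower, at log2 differences of -11.70 ± 0.71 (adjusted p = 0.000171) and -8.14 ± 0.24 (adjusted p = 5.12e-07). At E62 the log2 differences of these 5 genes ran from -12.15 to -6.18.

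Of the 13 broadly expressed relatives, 7 were lower, 1 was higher and 5 had no call at E41. At E62 8 were lower, 4 were higher and 1 had no call. Without the knockout E41 replicate 2, 4 were lower at E41. Their median log2 difference was -0.88 at E41 and -1.02 at E62. ACTN1, a non-muscle alpha-actinin, had 109 and 96.5 CPM in the wild type at E41 and 118 and 117 CPM in the knockout, with no call (log2 difference 0.19 ± 0.10, edgeR adjusted p = 0.168). At E62 it was higher in the knockout, at 93.4 and 83.4 CPM against 49.2 and 44.7 CPM in the wild type (0.91 ± 0.10, adjusted p = 0.000297). ACTN2 and ACTN1 thus moved in opposite directions at E62. ACTN4, the other non-muscle form, had 264 and 272 CPM in the wild type and 242 and 242 CPM in the knockout at E41, with no call (adjusted p = 0.244). At E62 ACTN4 was called lower in the knockout, at a mean of 206 CPM against 256 CPM in the wild type. Its log2 difference at E62 ran from -0.41 to -0.01 in the alternative analyses. CSRP2, a LIM protein of smooth muscle related to CSRP3, was lower at E41 (-1.07 ± 0.18, adjusted p = 0.00349) and had no call at E62 (-0.09 ± 0.18, adjusted p = 0.699; 0.026 without the knockout E62 replicate 1). PALLD, which encodes palladin, the broadly expressed relative of myopalladin and myotilin, was lower at both stages, at log2 differences of -0.88 ± 0.09 (adjusted p = 0.000366) and -1.53 ± 0.09 (adjusted p = 1.29e-05). LMOD1, the leiomodin of smooth muscle, was lower at both stages, at -1.85 ± 0.30 (adjusted p = 0.00204) at E62. At E41 its mean was 5.15 CPM in the knockout against 10.85 CPM in the wild type. TMOD3, a tropomodulin that caps pointed ends in non-muscle cells, had no call at E41 (adjusted p = 0.122) and was higher at E62 by 0.58 ± 0.11 (adjusted p = 0.00309). PDLIM7, a relative of LDB3 with PDZ and LIM domains, was lower at both stages, at -0.92 and -1.95. With libraries scaled by their totals alone, log2 differences between knockout and wild type were 0.29 higher over all genes at E41 and 0.30 at E62. Under that scaling 5 of these 13 relatives were lower and 3 higher at E41, ACTN1 was called higher there (adjusted p = 0.007), and the calls of the 9 genes did not change.

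**Figure D3:**
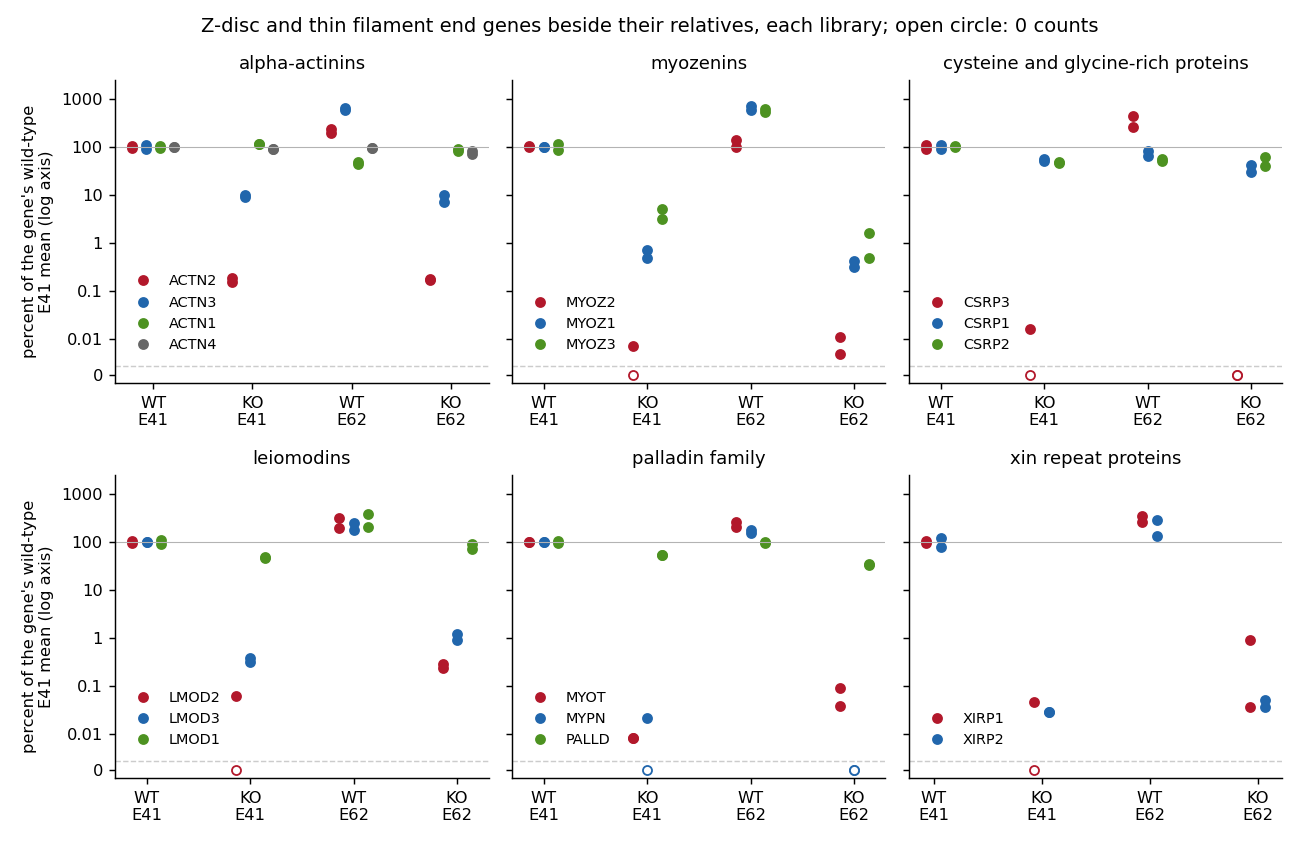
Each library of 6 gene families as a percentage of the wild-type E41 mean of the same gene, on a log axis, with 1 point per library and open circles for 0 counts. In each family the gene drawn in red, 1 of the 9, drops in the knockout, as does blue MYPN, also 1 of the 9. The striated relatives ACTN3, MYOZ1, MYOZ3, LMOD3 and XIRP2 drop too, whereas ACTN1 and ACTN4 stay near the line at 100% at E41.

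Other Z-disc genes were lower too, though not all. Of 26 listed Z-disc partners 23 were measured, and at E41 18 were lower in the knockout, 1 was higher and 4 had no call. At E62 21 were lower and 2 had no call, and their median log2 difference was -3.29 at E41 and -5.22 at E62. This list holds 4 of the striated relatives, and DES is also among the skeletal muscle markers. DES, desmin, which links Z-discs of neighbouring myofibrils, had 1075 and 1101 CPM in the wild type at E41 and 21.8 and 17.6 CPM in the knockout. Its log2 difference was -5.79 ± 0.26 (edgeR adjusted p = 3.81e-06), and -9.32 ± 0.30 (adjusted p = 4.04e-07) at E62. CRYAB, a small heat shock protein that protects desmin, was lower, at log2 differences of -6.04 at E41 and -5.02 at E62, and CAPN3, a muscle protease bound to titin, at -4.21 and -4.06. SYNPO2L, an actin-bundling Z-disc protein, was lower, at -7.57 and -9.77. Against the majority, NEBL, which encodes nebulette, was higher in the knockout at E41, at 67.5 and 61.9 CPM against 26.6 and 38.3 CPM (1.00 ± 0.21, adjusted p = 0.00867; 0.050 without the knockout E41 replicate 1), and had no call at E62 (adjusted p = 0.494). PDLIM3, a PDZ and LIM protein that binds alpha-actinin, had no call at E41 (-0.34 ± 0.36, adjusted p = 0.499) and was lower at E62 (-3.24 ± 0.39, adjusted p = 0.00119).

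At the thin filament ends, 8 of 10 further genes were lower at E41 and 2 had no call, and at E62 8 were lower, 1 was higher and 1 had no call. KLHL41 and KLHL40, of which the latter stabilises leiomodin 3 and both act on nebulin, were lower, at log2 differences of -11.57 ± 0.29 and -6.38 ± 0.13 at E41 (edgeR adjusted p = 1.85e-07 and 9.35e-08). TMOD1, a tropomodulin that caps the pointed end of the muscle thin filament, differed between 181 and 156 CPM in the wild type and 1.42 and 1.22 CPM in the knockout at E41. Its log2 difference was -7.00 ± 0.26 (adjusted p = 2.94e-06). TMOD4, the tropomodulin of skeletal muscle, was at 1.40 and 1.77 CPM in the wild type and 1.23 and 1.02 CPM in the knockout at E41, with no call (adjusted p = 0.235). By E62 it stood at 23.8 and 23.4 CPM against 2.79 and 4.77 CPM (-2.64 ± 0.28, adjusted p = 0.000208). CAPZA1, which caps barbed ends in most cells and at the Z-disc, had no call at E41 (-0.09) and passed the test at E62 at 0.33, but not without the wild-type E62 replicate 1 or the knockout E62 replicate 1 (adjusted p = 0.12 in each).

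Between E41 and E62 the genes rose in wild-type muscle. Of the 9, 8 were higher at E62 (edgeR), where 19.8% of all genes tested were called higher and 20.0% lower, and the median log2 difference was 1.32 against 0.03 over all genes. TCAP rose most, by 2.50 ± 0.19 (adjusted p = 0.00025), from the 36.8 and 38.2 CPM given above to 196 and 229 CPM. CSRP3 rose by 1.81 ± 0.31 (adjusted p = 0.00882; 1.75 and 0.055 without the wild-type E41 replicate 1). XIRP1 rose by 1.61 ± 0.47 (edgeR adjusted p = 0.0411), a call kept in 7 of 16 alternative analyses. It was lost with DESeq2 (adjusted p = 0.32), with no low-count filter (edgeR adjusted p = 0.062) and when any 1 of 6 libraries was left out. The log2 difference of XIRP1 stayed between 1.45 and 1.88 in these alternatives. LMOD2, SMPX and MYOT rose by 1.39 ± 0.23, 1.32 ± 0.13 and 1.23 ± 0.19, with adjusted p = 0.00394, 0.000493 and 0.00227. ACTN2 rose by 1.12 ± 0.14 (adjusted p = 0.00112) and MYPN by 0.73 ± 0.13 (adjusted p = 0.00544). MYOZ2 had no call, at 0.28 ± 0.21 (adjusted p = 0.317), and its E41 and E62 libraries overlapped. All 9 genes were higher in replicate 2 than in replicate 1 of the wild type at E62, with a median ratio of 1.33 between the libraries, against 1.06 at E41.

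The summed level of the 10 skeletal muscle markers rose over the same interval by 1.32 on the log2 scale. Set against that sum, a comparison chosen after the data were seen, TCAP and XIRP1 were higher at E62 in both libraries, by 1.18 and 0.28 on the log2 scale. MYOZ2, MYPN and ACTN2 were lower in both, at -1.05, -0.59 and -0.20, and the other 4 genes overlapped between stages. In CPM, the wild-type libraries of the stages did not overlap for most genes tested, with 36.5% higher and 34.3% lower at E62. That share was not computed on the relative scale, so lack of overlap there does not set these genes apart. SMPX stood at 0.00 on this relative scale, LMOD2 at 0.05, MYOT at -0.10 and CSRP3 at 0.46.

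The forms of fast muscle also rose in the wild type. MYOZ1 went from 58.0 and 56.9 CPM to 340 and 408 CPM (2.70 ± 0.14, edgeR adjusted p = 0.000119), beside 0.28 for MYOZ2. ACTN3 went from 1.88 and 1.504 CPM to 9.99 and 10.9 CPM (2.63 ± 0.28, adjusted p = 0.000591), beside 1.12 for ACTN2. MYOZ3 rose by 2.54 ± 0.27 (adjusted p = 0.000708), and the difference between the genes of a pair was not tested. Of the 23 Z-disc partners, 18 rose and 1 fell, and without either the wild-type E41 replicate 1 or the wild-type E41 replicate 2 only 12 passed. Of the 10 other thin filament end genes, 8 rose and 2 fell. TMOD4 rose most among them, by 3.89 ± 0.31 (adjusted p = 0.000228). ACTN1 fell by 1.13 on the log2 scale (adjusted p = 0.000389) in the wild type while ACTN2 rose.

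**Figure D4:**
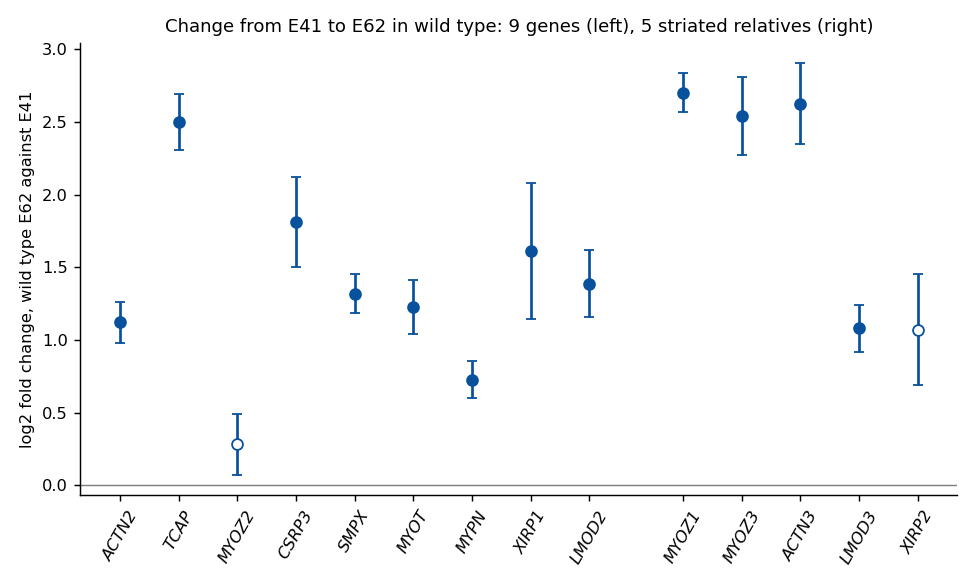
Log2 difference of E62 against E41 in wild-type muscle for the 9 genes and their 5 striated relatives, with bars of 1 SE from 2 libraries a group. Filled points passed the test at an adjusted p under 0.05 and open points did not, with TCAP highest among the 9 at 2.50 and MYOZ2 lowest at 0.28.

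In the knockout 1 of the 9 genes was called between the stages and 8 were not. MYOT was called higher at E62, where 12.1% of all genes were called higher and 18.0% lower (2 against 22 counts, ratio 7.77, interval 1.91 to 68.2, edgeR adjusted p = 0.0243). That call was lost without either knockout E41 library (adjusted p = 0.12 in each) or without the knockout E62 replicate 1 (0.11). ACTN2 differed by 0.01 ± 0.17 (adjusted p = 0.958), with libraries at 2.02 to 2.41 CPM at both stages. TCAP differed by 0.98 ± 0.39 (adjusted p = 0.0935; 0.017 without the knockout E62 replicate 1). LMOD2 had no call either, but passed without the wild-type E62 replicate 1 or the wild-type E62 replicate 2 (0.025 in each). XIRP1 had no call (adjusted p = 0.165), though it passed without the knockout E62 replicate 2, the library with 1 count (0.0076). For the genes at 0 to 4 counts per library, a change between stages was not detectable at this depth. Among the partners, CAPN3 rose in the knockout from 2.73 and 2.78 CPM to 11.3 and 10.8 CPM (2.0 ± 0.10, adjusted p = 0.000155), while in the wild type it rose by 1.85 ± 0.09 (adjusted p = 0.000114). DES fell in the knockout by 1.63 on the log2 scale (adjusted p = 0.0025).

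The knockout effect itself was called larger at E62 than at E41 for ACTN2 and TCAP. For ACTN2 the wild type rose by 1.12 on the log2 scale, while the knockout differed by 0.01 with no call. The small ACTN2 counts in the knockout are uncertain, as stated above, and so is the size of its difference. The difference of the log2 effects was -1.11 ± 0.22 for ACTN2 (edgeR adjusted p = 0.00936; -0.98 and 0.052 without the knockout E41 replicate 2). It was -1.52 ± 0.46 for TCAP (adjusted p = 0.0472), a call kept in 6 of 15 alternative analyses and lost without any 1 of 7 libraries, with adjusted p from 0.061 to 0.27. Over all genes 15.5% had a lower and 11.2% a higher difference. The other 7 genes had no call, though XIRP1 was called higher without the knockout E62 replicate 2 (adjusted p = 0.029), and where the knockout is at or near 0 the size of this difference is set by the counting floor. Of the 23 partners 13 had a larger loss at E62 and 1, CRYAB, a smaller one (1.02 ± 0.30, adjusted p = 0.0427), a call lost without any 1 of 7 libraries (adjusted p from 0.063 to 0.15). CAPN3 had no call (0.16 ± 0.13, adjusted p = 0.393).

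The genes most like the mean profile of the 9 genes over the 8 libraries, by root mean square distance of centred log2(CPM + 0.5), were ATP2A1, ATP1B4, MYL3, VGLL2 and PRR32, out of 14073 genes with a symbol. Their distances ran from 0.188 for ATP2A1, the calcium pump of fast muscle, to 0.386 for PRR32. MYL3 encodes a myosin light chain of slow and cardiac muscle, and VGLL2 a cofactor of TEAD transcription factors in muscle. The distances of the 9 genes themselves from their mean, to which they contribute, ran from 0.323 for MYPN to 1.0 for MYOZ2, with 0.906 for TCAP. Ranked by Pearson correlation instead, the top 5 shared only ATP2A1 with this list.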

How the data were processed

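The submitters' processing notes name 2 tools, kallisto and DESeq2, and give susScr11 and Sscrofa11.1 as builds, with no role or version. The deposited values are estimated counts per Ensembl gene, not normalized. They were rounded to whole numbers and tested with edgeR 4.0.16 in R 4.3.3 (quasi-likelihood F test with robust dispersion, 4 group means, TMM factors, filterByExpr with a minimum count of 10), with Benjamini-Hochberg adjustment and calls at an adjusted p under 0.05. The common biological coefficient of variation was 0.204. Symbols came from the reference name table, which matched 15527 of 22516 identifiers, and positions from RefSeq. An SE is the log2 difference divided by the square root of F. Where the knockout had 0 counts over the group, folds are bounds against a floor of 3 counts; at 1 to 3 counts they are count ratios with exact 95% intervals, for counting error only.

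All 10 listed genes were to be named, with the targeted genes, up to 6 genes of smallest p, 3 against the majority and 3 that missed the threshold in each list, all family relatives and the 5 most similar genes. The genes and lists were chosen with earlier results of these data known. The procedure was tested on simulated data. Alternatives were DESeq2 1.42.0, limma-voom (limma 3.58.1), other scalings, filters and samples, a replicate block, and each library left out in turn. No sequence is printed, LDB3 was not used here, and the difference between stages for 1 Z-disc partner is not reported here.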

Additional observations from a re-analysis of the deposited data

Results flagged for a closer look

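A knockout effect that differed between E41 and E62 by edgeR's test of the difference itself was found for the genes below, given as the log2 effect at E62 minus that at E41. Among the 9 measured genes these were ACTN2 at -1.11 and TCAP at -1.52. Among their striated relatives the values were -3.41 for MYOZ1, -4.46 for MYOZ3 and -2.82 for ACTN3. Other Z-disc genes with a larger loss at E62 were DES at -3.53, KY at -3.71, NRAP at -3.03, PDLIM3 at -2.90, HSPB7 at -2.84 and SYNPO2 at -2.75. The same held for CMYA5 at -2.62, SYNPO2L at -2.20 and FLNC at -1.95, while CRYAB stood at 1.02. At the thin filament ends the values were -2.60 for KLHL41, -2.56 for TNNT3, -2.15 for TMOD4 and -1.72 for KLHL40. Of the broadly expressed relatives, CSRP2, TMOD3 and ACTN1 had 0.98, 0.81 and 0.72. PDLIM4, PDLIM5, PDLIM7 and PALLD had -1.36, -1.26, -1.03 and -0.65. The calls of TNNT3 (adjusted p from 0.078 to 0.13 without any 1 of 6 libraries), CSRP2 (0.064 to 0.10 without any 1 of 6) and PDLIM5 (0.057 without the wild-type E41 replicate 1) were lost on leaving out a library. Those of TCAP, CRYAB and ACTN2 are described with the results.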

How the results depend on the processing

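All 9 genes stayed lower in the knockout at both stages under all 16 alternatives. In the wild type from E41 to E62 6 to 8 genes passed on leaving out 1 library. Relative to the summed muscle markers, chosen after the data were seen, MYPN (-0.59), MYOT (-0.10), ACTN2 (-0.20) and MYOZ2, which had no call (from 0.28 to -1.05), changed sign. CSRP3, XIRP1, LMOD2 and TCAP kept theirs, and SMPX stood at 0.00. In the knockout between stages the count of 1 called higher became 2 with DESeq2 and 0 with limma-voom (MYOT adjusted p = 0.19). It was also 0 with only the groups compared, where MYOT was not among the genes tested. The count also moved when single libraries were left out. For the difference between stages the count of 2 called lower became 1 with limma-voom or RLE factors, and 0 to 2 on leaving out a library, and XIRP1 was called higher without the knockout E62 replicate 2 (adjusted p = 0.029). Genes called overall ranged on leaving out a library from 3927 to 6720 (knockout effect at E41), 5816 to 8131 (at E62), 4491 to 6885 (wild type between stages), 1906 to 5022 (knockout between stages) and 2499 to 4282 (difference); the lowest counts came without the knockout E41 replicate 1 at E41, in the knockout and for the difference, and without the wild-type E62 replicate 2 in the wild type. With library totals alone the share of called genes that were higher moved from 47.1% to 73.6% at E41 and from 44.5% to 69.4% at E62. Replicates shared only a number, with correlations of their deviations from -0.122 to 0.081, and with the replicate block 6114, 7512, 6109, 4435 and 3851 genes and 9, 9, 7, 1 and 2 of the 9 were called; XIRP1 in the wild type was lost (adjusted p = 0.078). Causes were not tested. With 2 libraries a group the spread is poorly known, and in the knockout depth limits any comparison among genes at 0 to 4 counts.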

Other observations

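Macrophage markers moved with the stage of the knockout. All 5 measured markers were higher in the knockout than in the wild type at E62 (edgeR), where 21.0% of all genes tested were called higher. Their summed level was 356 to 383 CPM against 89 to 101 CPM. At E41 the sums were 122 to 125 CPM and 58 to 109 CPM, with 2 markers higher and 1 lower. Of all genes tested, 18.5% were called higher and 20.8% lower at E41. Schwann cell markers (4 measured) summed to 52.2 to 59.1 CPM in the knockout at E62 against 490 to 508 CPM in the wild type.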
